A study of Danio rerio with 8 samples.

Results

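Pectoral fin bud genes were followed across the 3 groups of the study: fgf10a, fgf24, fgf16, and1, and2, msx1b, prdm1a, sall4, mab21l2 and meis1b. Their probes were taken by name and not by value, as the probes of the deposited log2 matrix whose systematic name matched 1 of these symbols through a RefSeq table. The separate gene name field of the scans was not used, and 14446 probes stayed without a symbol. Further probes of these genes may therefore have been missed. The genes themselves were chosen with earlier results of these data known. All 10 genes were found, with 20 probes, among 12792 named genes and 39162 probes in all. The arrays were 1-colour Agilent zebrafish arrays, each hybridised with Cy3-labelled RNA from a pool of 50 whole AB embryos at 24 hpf (hours post fertilisation). All embryos had been injected at the 1-cell stage with 1.5 ng of a morpholino, an antisense oligonucleotide, and 0.25 ng of a miRNA mimic, a synthetic double-stranded version of a mature miRNA. MO-Ct embryos (n = 2 arrays) received a control morpholino with the control mimic miR-Ct. MO-Tbx5a embryos (n = 3) received a morpholino against the translation start of tbx5a with miR-Ct, and MO-Tbx5a+miR-19a embryos (n = 3) received that morpholino with the miR-19a mimic.

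In zebrafish, Tbx5a marks the lateral plate cells that form the pectoral fin and is needed there for a relay of Fgf signals. Fgf24 acts early in the mesenchyme, Fgf10a follows it and signals to the overlying ectoderm, and the ectodermal ridge sends Fgf ligands such as Fgf16 back to the mesenchyme. Sall4, Prdm1a, Msx1b and Meis1b are transcription factors of the bud that also work in other organs, Mab21l2 is best known from the eye, and the actinodins And1 and And2 are structural proteins of actinotrichia, the fibrils that stiffen fin folds. At 24 hpf the fin field is a small part of the embryo, so a pool of whole embryos measures each gene in all tissues that transcribe it. In such bulk RNA, fewer cells of a type and less RNA per cell cannot be told apart.

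Several facts of the series bear on every value given here. No probe was matched to tbx5a, and a morpholino against translation need not lower its transcript, so the depletion itself was not checked. For the group with miR-19a, the treatment label gives MO-19a, a morpholino, while titles and design text give miR-19a, and the titles were followed. By the labels, 200 ng of RNA was labelled with 1 kit for MO-Ct and MO-Tbx5a, and 0.5 ug with another for the miR-19a group, so kit and group cannot be told apart wherever that group is compared. The matrix columns had medians of 7.77 to 7.80 on the log2 scale, and precision is limited by how few arrays there are. The study calls its arrays biological replicates, and the labels do not say whether the pools came from separate clutches. The tests measure the spread between these arrays.

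The 3 raw scans deposited for MO-Tbx5a+miR-19a did not follow their own columns of the matrix. Over all probes, the rank correlation of each scan with its own column was 0.939, 0.939 and 0.935, against 0.944 to 0.949 with the MO-Ct columns for the first 2 scans and 0.934 to 0.940 for the last. After each scan was brought to the distribution of the matrix, 14 of the 20 fin bud probes lay outside the range of all 8 matrix arrays in all 3 scans (6 above, 8 below), beside 46.5% of all probes. For and2 the 3 scans read 14.0 to 14.2 on that scale at the brightest probe, whereas the 8 matrix arrays ran from 9.79 to 10.99. For sall4 they read 7.25 to 7.99 (matrix 9.83 to 11.24). The scans of fgf24 (7.78 to 8.01) lay within the matrix range of 6.81 to 8.18. All comparisons below use the matrix alone, and those with MO-Tbx5a+miR-19a rest on columns that the scans did not bear out.

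**Figure D1:**
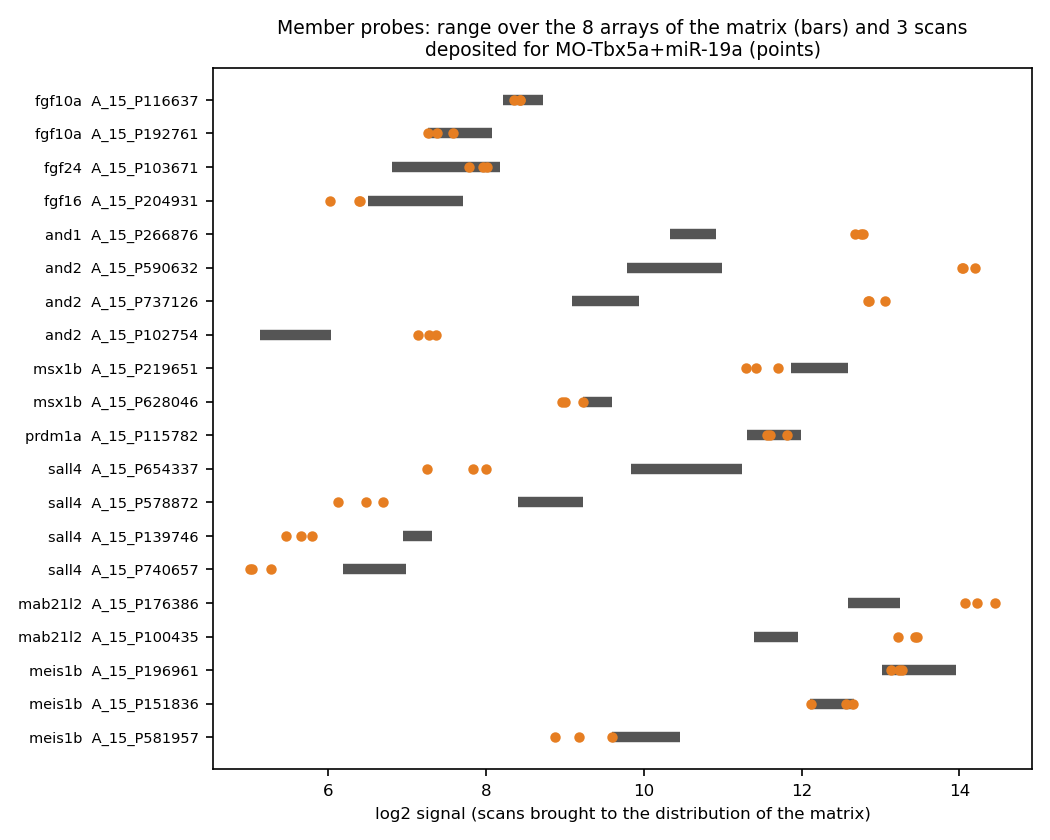
Log2 signal (x axis) of the 20 probes of the fin bud genes (y axis). Grey bars span the lowest to the highest of the 8 arrays of the deposited matrix and orange points are the 3 raw scans deposited for MO-Tbx5a+miR-19a, brought to the distribution of the matrix. The and1, and2 and mab21l2 scans lie above their bars, and the sall4 scans below them.

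A probe was called when its fold change was above 1.3 with both p and the Benjamini-Hochberg adjusted p under 0.05 in limma, fitted over all 39162 probes and 8 arrays. A gene was represented by its brightest probe, that with the highest mean over the arrays. In MO-Tbx5a relative to MO-Ct, 5 of the 10 genes were called, beside 37.1% of all named genes. Of these, fgf16, sall4 and meis1b were higher (3 of 10, beside 16.5%) and and2 and prdm1a were lower (2 of 10, beside 20.6%). In MO-Tbx5a+miR-19a relative to MO-Tbx5a, 7 of 10 were called, beside 41.3%. There and2 and prdm1a were higher (2 of 10, beside 21%), and fgf24, fgf16, sall4, mab21l2 and meis1b were lower (5 of 10, beside 20.3%). In MO-Tbx5a+miR-19a relative to MO-Ct only fgf24 was called, lower (1 of 10 called, beside 12.1% called, 5.52% higher and 6.62% lower).

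The groups did not overlap at the brightest probe for 9 of 10 genes when MO-Tbx5a was set against MO-Ct (61.1% of all named genes). The count was 6 of 10 between both MO-Tbx5a groups (57%) and 5 of 10 between the miR-19a group and MO-Ct (45.7%). Both comparisons with MO-Ct rest on only 2 control arrays. Counted by probe, 9 of 20 were called in the first comparison, 6 higher and 3 lower, beside 38.4% of all probes (18.7% higher, 19.6% lower). The second called 12 of 20, 2 higher and 10 lower, beside 42.2% (20.2% higher, 21.9% lower). The last called 2 of 20, both lower, beside 11.2% (5.24% higher, 5.95% lower). Probe groups did not overlap for 15, 11 and 9 of 20, beside 62%, 57.2% and 43.6%. Probes of 1 gene share their target and are not independent. The median log2 change of the 10 genes was -0.11, -0.24 and -0.22 in the 3 comparisons, whereas that of all named genes was -0.03, 0.01 and -0.03. The 3 comparisons share arrays, and their values are given side by side only.

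Leaving out either MO-Ct array leaves 1 control array, here and below. Without MO-Ct replicate 1 the calls of fgf16, meis1b and prdm1a in MO-Tbx5a were lost. Their log2 changes were then 0.60, 0.43 and -0.15, beside 0.68, 0.50 and -0.41 with all arrays. When the 3 arrays with miR-19a were kept out of the fit, 4 of 10 passed between MO-Tbx5a and MO-Ct, and prdm1a (adjusted p = 0.0599) was the gene lost. The share of all named genes called in either setting was not computed.

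**Figure D2:**
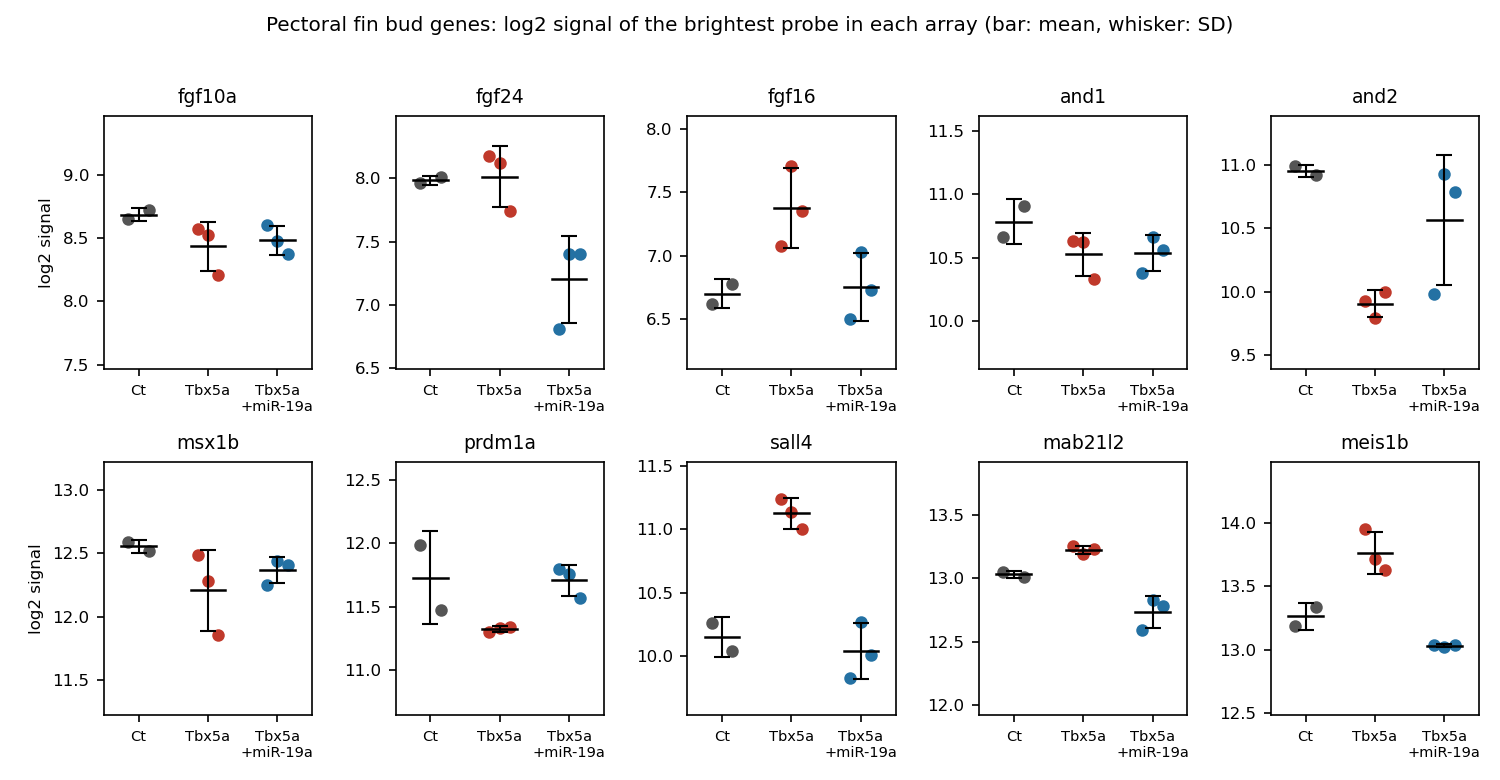
Log2 signal (y axis, each panel with its own range) of the brightest probe of each gene in each array (points: 2 of MO-Ct, 3 of MO-Tbx5a, 3 of MO-Tbx5a+miR-19a), with the mean (bar) and SD (whisker) of each group. The 3 MO-Tbx5a arrays of sall4 (11.00 to 11.24) sit above all other arrays, those of and2 (9.79 to 10) sit below both MO-Ct arrays, and the 3 MO-Tbx5a+miR-19a arrays of fgf24 (6.81 to 7.40) sit below all others.

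Of the ligands, fgf24 did not pass the test after depletion of Tbx5a and was lower with miR-19a. Its 1 probe (A_15_P103671, NM_182871) read 7.96 and 8.01 in MO-Ct, 8.18, 8.12 and 7.74 in MO-Tbx5a, and 6.81, 7.40 and 7.40 in MO-Tbx5a+miR-19a. The first 2 groups overlapped, and the 3 arrays with miR-19a lay below both. The log2 change in MO-Tbx5a was 0.03 (95% interval -0.38 to 0.43, adjusted p = 0.920). With miR-19a it was -0.81 relative to MO-Tbx5a (SE 0.17, adjusted p = 0.00155 by limma), a 1.75-fold lower level. Relative to MO-Ct it was -0.78 (SE 0.19, adjusted p = 0.0201). In order of level, MO-Tbx5a and MO-Ct did not differ beyond their spread and MO-Tbx5a+miR-19a was lowest. The call against MO-Ct was lost without MO-Ct replicate 1 (adjusted p = 0.0961), MO-Ct replicate 2 (0.146) or MO-Tbx5a+miR-19a replicate 1 (0.0543). That last array held the lowest value, and without it the change was -0.58. The call against MO-Tbx5a was held in the 16 settings that changed the values, the fit or the arrays (-0.95 to -0.61), and was lost with a fold minimum of 2.

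The 2 probes of fgf10a (NM_182870), which encodes the mesenchymal ligand that acts after Fgf24, gave different pictures. At the brightest (A_15_P116637) the arrays read 8.65 and 8.72 in MO-Ct, 8.57, 8.52 and 8.21 in MO-Tbx5a, and 8.60, 8.48 and 8.37 in MO-Tbx5a+miR-19a. Both MO-Ct arrays were the highest, but no comparison passed. The changes were -0.25 in MO-Tbx5a (95% interval -0.55 to 0.05, adjusted p = 0.163), 0.05 with miR-19a relative to MO-Tbx5a (interval -0.22 to 0.32), and -0.20 relative to MO-Ct (adjusted p = 0.373). At the dimmer probe (A_15_P192761) the readings were 7.65 and 7.86, then 8.07, 8.05 and 7.41, then 7.49, 7.27 and 7.26 in the same order of groups. This probe was lower with miR-19a than in MO-Tbx5a (-0.50, adjusted p = 0.0234), although the third MO-Tbx5a array overlapped with the group. It did not differ from MO-Ct beyond the threshold, in MO-Tbx5a (0.09) or with miR-19a (-0.42, adjusted p = 0.171). The call at the dimmer probe was lost when replicate 1 or 2 of MO-Tbx5a, or replicate 2 or 3 of MO-Tbx5a+miR-19a, was left out, where the lowest adjusted p was 0.0622.

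In fgf16, a ligand of the ectodermal ridge, MO-Tbx5a stood highest. The probe (A_15_P204931, NM_001040407) read 6.62 and 6.78 in MO-Ct, 7.08, 7.71 and 7.35 in MO-Tbx5a, and 6.50, 7.03 and 6.73 in MO-Tbx5a+miR-19a. All 3 MO-Tbx5a arrays were above every other array, and the other two groups overlapped. The change was 0.68 in MO-Tbx5a (SE 0.19, 1.60-fold, adjusted p = 0.0119 by limma) and -0.63 with miR-19a relative to MO-Tbx5a (adjusted p = 0.00800). MO-Ct and MO-Tbx5a+miR-19a were neighbours that did not differ beyond their spread (0.05, 95% interval -0.35 to 0.46).

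Among the transcription factors, sall4 changed most. Sall4 is a zinc finger protein that acts with Tbx5 in fin and limb buds and is also expressed in the developing brain. Its brightest probe (A_15_P654337, NM_001080609) read 10.26 and 10.04 in MO-Ct, 11.24, 11.14 and 11.00 in MO-Tbx5a, and 9.83, 10.27 and 10.01 in MO-Tbx5a+miR-19a. The MO-Tbx5a arrays were above all others and the remaining arrays overlapped. The change was 0.98 in MO-Tbx5a (SE 0.15, 1.97-fold, adjusted p = 0.00028 by limma). With miR-19a it was -1.09 relative to MO-Tbx5a (SE 0.13, 2.13-fold lower, adjusted p = 3.45e-05). Relative to MO-Ct it was -0.11 (95% interval -0.43 to 0.21, adjusted p = 0.666).

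The other 3 probes of sall4 did not all follow. Probe A_15_P578872 was higher in MO-Tbx5a (0.65) and lower with miR-19a relative to MO-Tbx5a (-0.40), and A_15_P740657 gave 0.51 and -0.49. All 4 of these changes passed, and in both probes the MO-Tbx5a arrays were above all others. Probe A_15_P139746 read 7.31 and 7.16 in MO-Ct, 7.21, 6.98 and 6.94 in MO-Tbx5a, and 7.22, 7.30 and 7.16 in MO-Tbx5a+miR-19a, with changes of -0.19 and 0.18 that did not pass. The 4 probes are annotated to 1 transcript, and which part each covers was not examined. The smaller call of A_15_P578872 with miR-19a was lost under a second cyclic loess, run on the matrix that the authors had already normalised by it. It was also lost under scaling to the 75th percentile. In both settings its change (-0.36 and -0.37) was under the fold minimum. The same was true without MO-Tbx5a replicate 1 (-0.363), MO-Tbx5a+miR-19a replicate 1 (-0.365) or MO-Tbx5a+miR-19a replicate 3 (-0.355). Without MO-Ct replicate 2, the rise of A_15_P740657 in MO-Tbx5a was 0.357, also under the fold minimum.

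The TALE homeobox gene meis1b, whose product is a partner of Hox proteins in the hindbrain and in limb buds, had the same order of groups. Its brightest probe (A_15_P196961, NM_131893) read 13.19 and 13.34 in MO-Ct, 13.95, 13.72 and 13.63 in MO-Tbx5a, and 13.04, 13.02 and 13.04 in MO-Tbx5a+miR-19a. No 2 groups overlapped. The change was 0.50 in MO-Tbx5a (SE 0.13, adjusted p = 0.00738 by limma) and -0.73 with miR-19a relative to MO-Tbx5a (SE 0.11, adjusted p = 0.000208). MO-Ct and MO-Tbx5a+miR-19a were not called apart (-0.23, 95% interval -0.51 to 0.04, adjusted p = 0.265). Probe A_15_P581957 read 9.61 and 9.60 in MO-Ct, 10.46, 10.31 and 10.33 in MO-Tbx5a, and 9.75, 9.87 and 9.79 in MO-Tbx5a+miR-19a. It was called in both comparisons with MO-Tbx5a (0.76 and -0.56, adjusted p = 0.00027 and 0.000651), and at this probe MO-Tbx5a+miR-19a lay above MO-Ct (0.20, not called) rather than below it. The third probe (A_15_P151836) was not called in any comparison (0.29, -0.10 and 0.19).

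prdm1a moved the opposite way to sall4 and meis1b, with smaller changes. Prdm1a is a zinc finger repressor needed for fin outgrowth, slow muscle and neural crest and expressed in the hatching gland. The probe (A_15_P115782, NM_199515) read 11.99 and 11.47 in MO-Ct, 11.30, 11.33 and 11.34 in MO-Tbx5a, and 11.80, 11.76 and 11.57 in MO-Tbx5a+miR-19a. The MO-Tbx5a arrays were lowest, and the 2 MO-Ct arrays differed from each other by more than the lower of them did from MO-Tbx5a. The change was -0.41 in MO-Tbx5a (SE 0.15, adjusted p = 0.047 by limma) and 0.39 with miR-19a relative to MO-Tbx5a (adjusted p = 0.031). MO-Ct and MO-Tbx5a+miR-19a did not differ beyond their spread (-0.02, 95% interval -0.35 to 0.31). The first call was lost in 8 of the 16 settings that changed the values, the fit or the arrays, and without MO-Ct replicate 1 the change was -0.15 (adjusted p = 0.510). The second was lost in 4 of 16, all of them with 1 array of MO-Tbx5a or MO-Tbx5a+miR-19a left out. Both calls were also lost with a fold minimum of 2 or an FDR limit of 0.01.

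No comparison was called for msx1b, a homeobox gene of the fin fold and neural crest. The brightest probe (A_15_P219651, NM_131260) read 12.59 and 12.52 in MO-Ct, 12.49, 12.28 and 11.86 in MO-Tbx5a, and 12.25, 12.44 and 12.41 in MO-Tbx5a+miR-19a. Both MO-Ct arrays were above every other array, and the MO-Tbx5a arrays were spread widely. The changes were -0.35 in MO-Tbx5a (95% interval -0.70 to 0.01, adjusted p = 0.113), 0.16 with miR-19a relative to MO-Tbx5a and -0.19 relative to MO-Ct. The dimmer probe (A_15_P628046) gave -0.20, 0.01 and -0.19. Without MO-Tbx5a replicate 1, the change at the brightest probe in MO-Tbx5a was -0.49 and passed (adjusted p = 0.0342).

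For mab21l2, which is needed for the eye and is also expressed in the midbrain, pharyngeal arches and fin buds, both probes were lower with miR-19a. The brightest (A_15_P176386, NM_152975) read 13.05 and 13.01 in MO-Ct, 13.25, 13.19 and 13.23 in MO-Tbx5a, and 12.59, 12.83 and 12.78 in MO-Tbx5a+miR-19a. The other (A_15_P100435) read 11.84 and 11.81, then 11.94, 11.91 and 11.95, then 11.40, 11.39 and 11.46. At both probes MO-Tbx5a was highest, MO-Ct next and MO-Tbx5a+miR-19a lowest, with no overlap between any 2 groups. The step from MO-Ct to MO-Tbx5a was not called at either probe (0.19, adjusted p = 0.215, and 0.11, adjusted p = 0.461). With miR-19a relative to MO-Tbx5a the changes were -0.49 (SE 0.11, adjusted p = 0.00212 by limma) and -0.52 (adjusted p = 0.000872). Relative to MO-Ct the dimmer probe was called (-0.41, adjusted p = 0.0328) and the brightest was not (-0.30, adjusted p = 0.129). The call at the dimmer probe was lost without MO-Ct replicate 1 (adjusted p = 0.143), MO-Ct replicate 2 (0.154), MO-Tbx5a replicate 2 (0.0518) or any 1 of the 3 MO-Tbx5a+miR-19a arrays (0.0600 to 0.0776). It was also lost under a second cyclic loess, where the change of -0.37 was under the fold minimum.

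Of the 2 actinodin genes, and2 was called in MO-Tbx5a and and1 was not, and the difference between them was not tested. The probe of and1 (A_15_P266876, NM_001197254) read 10.66 and 10.91 in MO-Ct, 10.63, 10.62 and 10.33 in MO-Tbx5a, and 10.38, 10.66 and 10.56 in MO-Tbx5a+miR-19a. It was not called in any comparison, with changes of -0.26 (95% interval -0.57 to 0.05, adjusted p = 0.169), 0.01 and -0.25. The lower MO-Ct array lay just above the highest MO-Tbx5a array.

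The brightest probe of and2 (A_15_P590632, NM_001111190) read 10.99 and 10.92 in MO-Ct, 9.93, 9.79 and 10 in MO-Tbx5a, and 9.98, 10.93 and 10.79 in MO-Tbx5a+miR-19a. The MO-Tbx5a arrays were well below MO-Ct, and within MO-Tbx5a+miR-19a replicate 1 lay among the MO-Tbx5a values while the other arrays of the group lay near MO-Ct. The change was -1.05 in MO-Tbx5a (SE 0.22, 2.07-fold lower, adjusted p = 0.00242 by limma). With miR-19a it was 0.66 relative to MO-Tbx5a (SE 0.20, adjusted p = 0.0144), and relative to MO-Ct it was -0.39 (95% interval -0.87 to 0.09, adjusted p = 0.282). The rise with miR-19a was not called without replicate 2 (0.48, adjusted p = 0.0626) or replicate 3 (0.55, adjusted p = 0.0595) of that group, or with the mean of the 3 probes in place of the brightest (0.34, adjusted p = 0.0927).

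Of the other and2 probes, A_15_P102754 read 5.63 and 6.03 in MO-Ct, 5.30, 5.13 and 5.18 in MO-Tbx5a, and 5.32, 5.50 and 5.83 in MO-Tbx5a+miR-19a. This probe was dim, with a mean log2 value under 6, and dropped out in the setting that left out dim probes. It was lower in MO-Tbx5a (-0.63, adjusted p = 0.00895), whereas its change with miR-19a (0.35, adjusted p = 0.0678) did not pass. The call in MO-Tbx5a was lost without MO-Ct replicate 2 (-0.43, adjusted p = 0.132). Probe A_15_P737126 was not called in any comparison. There the MO-Tbx5a arrays (9.47, 9.33 and 9.37) lay within the range of MO-Ct (9.31 and 9.94) and the mean of MO-Tbx5a+miR-19a equalled that of MO-Tbx5a (9.39).

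**Figure D3:**
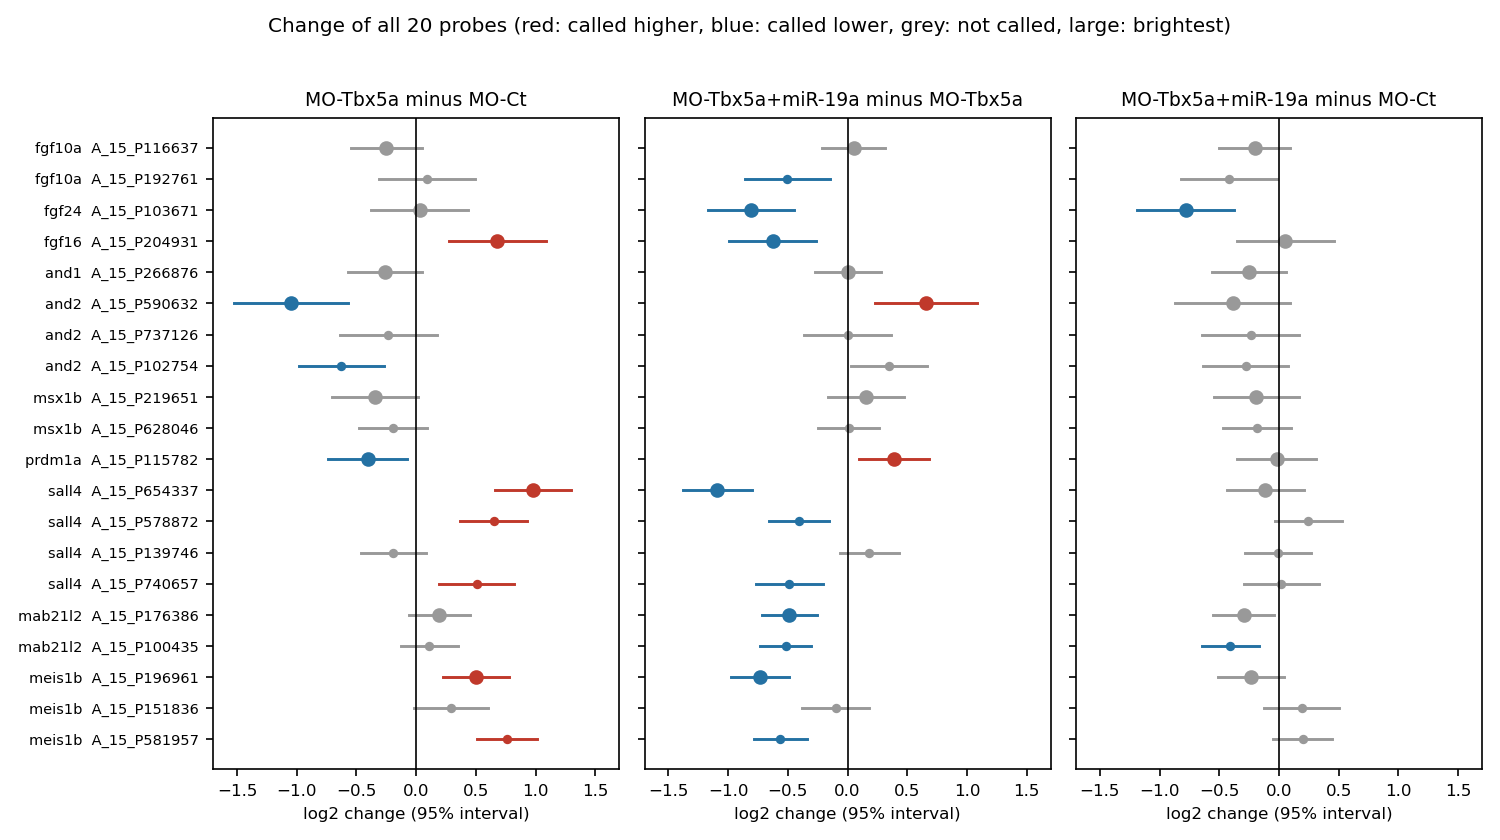
Log2 change (x axis, points) with its 95% interval (lines) of each of the 20 probes (y axis) in the 3 comparisons (panels). Red marks probes called higher, blue those called lower and grey those not called, and large points are the brightest probe of a gene. In no gene do called probes of 1 comparison point both ways, but called and uncalled probes of 1 comparison stand side by side in fgf10a, and2, sall4, mab21l2 and meis1b.

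The wider Fgf pathway was examined through 26 measured genes of a list of 28 that holds ligands, receptors, targets and inhibitors other than the fin bud genes themselves. In MO-Tbx5a, 5 were higher and 6 lower than in MO-Ct (42.3% called, beside 37.1% of all named genes). The receptor gene fgfr1b (1.25, adjusted p = 0.000108) and spry4, which encodes a feedback inhibitor (0.56), rose most, and the receptor gene fgfr4 (-0.69) and il17rd, which encodes an inhibitor (-0.63), fell most. The other of the 2 fgfr1b probes gave 0.075. The 2 probes of fgfr4 gave -0.69 and 0.60, and those of il17rd ran from -1.14 to 0.08. With miR-19a relative to MO-Tbx5a, 4 were higher and 4 lower (30.8%, beside 41.3%). The largest falls were in fgfr1b (-1.41, adjusted p = 1.18e-05 by limma) and fgfr2 (-0.82, adjusted p = 0.000724). The largest rises were in fgfr4 (0.73) and the ligand gene fgf17 (0.62), whose probe was dim (means of 5.62 in MO-Tbx5a and 6.24 with miR-19a). The other fgfr1b probe gave -0.08 in this comparison, and the 6 probes of fgfr2 ran from -1.13 to -0.61. The mean of both fgfr4 probes gave -0.018 there, with the opposite sign. Relative to MO-Ct, 2 were higher and 2 lower (15.4%, beside 12.1%), among them fgfr2 (-0.68, adjusted p = 0.0232 by limma), whose product binds Fgf10 in mammals. The 6 probes of fgfr2 ran from -0.68 to -0.05 in this comparison.

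The median change of the Fgf list was within 0.04 of 0 on the log2 scale in each comparison (0.02, -0.03 and -0.04, with -0.03, 0.01 and -0.03 for all named genes). The receptor gene fgfr1a was not called in MO-Tbx5a (0.84, adjusted p = 0.106), and its 3 probes ran from -0.39 to 0.84. fgf10b, the closest relative of fgf10a, was not called in any comparison (-0.29, 0.32 and 0.02). For fgf10b the second of these changes fell short of the fold minimum.

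Fin field and bud patterning genes other than those above (41 measured of 47) were called in both directions. In MO-Tbx5a 9 were higher and 10 lower (46.3% called, beside 37.1% of all named genes). The rises were led by hoxa11b (1.07), which encodes a Hox protein, and the Wnt ligand gene wnt3 (1.02). The falls were led by hoxd10a (-0.97) and hoxa13b (-0.77). With miR-19a relative to MO-Tbx5a 10 were higher and 11 lower (51.2%, beside 41.3%). Here the rises were led by sdc4 (0.93), which encodes a heparan sulphate proteoglycan, and hoxd10a (0.78). The falls were led by wnt3 (-1.18) and tcf7 (-1.16), which encodes a nuclear effector of Wnt signals. Relative to MO-Ct 1 was higher, sdc4 (0.59), and 1 lower, aldh1a2 (-0.57), which encodes a retinoic acid synthase (4.88% called, beside 12.1%). With miR-19a relative to MO-Tbx5a the 3 probes of tcf7 ran from -1.16 to -0.03. The other hoxd10a probe gave -0.05 in MO-Tbx5a and 0.04 with miR-19a relative to MO-Tbx5a. In MO-Tbx5a both probes of hoxa11b rose (0.54 and 1.07) and both of hoxa13b fell (-0.91 and -0.77). The medians of the list were -0.04, -0.11 and -0.17 in the 3 comparisons.

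Of the genes taken to define fin mesenchyme, tbx5a had no matched probe. The homeobox gene prrx1a was not called in any comparison at its brightest probe (0.02, 0.15 and 0.17). Its other probe gave -0.77 in MO-Tbx5a and 0.76 with miR-19a relative to MO-Tbx5a. hand2, which encodes a basic helix-loop-helix factor of the posterior bud and of the heart, was lower in MO-Tbx5a (9.34 in MO-Ct and 8.67 in MO-Tbx5a, -0.67, adjusted p = 0.00485 by limma). It was not called with miR-19a relative to MO-Tbx5a (0.29). The 3 probes of hand2 ran from -0.67 to -0.22 in MO-Tbx5a and from -0.05 to 0.29 with miR-19a relative to MO-Tbx5a. The fin marker bmp4 was not called in MO-Tbx5a (0.24) and was lower with miR-19a relative to MO-Tbx5a (-0.73, adjusted p = 0.0110). The 3 probes of bmp4 ran from -0.13 to 0.60 in MO-Tbx5a and from -0.73 to -0.08 with miR-19a relative to MO-Tbx5a. At its brightest probe the MO-Tbx5a+miR-19a arrays were spread widely (SD 0.55, with 0.10 in MO-Tbx5a and 0.08 in MO-Ct). They overlapped with MO-Ct and were not called apart from it (-0.49, adjusted p = 0.194 by limma). The paralogue tbx5b was dim and was not called in any comparison (0.26, -0.15 and 0.11).

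The paralogues of the 10 genes (20 measured of 26) held 3 higher and 4 lower in MO-Tbx5a (35% called, beside 37.1% of all named genes). They held 3 higher and 5 lower with miR-19a relative to MO-Tbx5a (40%, beside 41.3%), and 2 lower relative to MO-Ct (10%, beside 12.1%). Beside sall4, sall3b rose in MO-Tbx5a (0.82) and was lower with miR-19a (-0.99). Beside and2, and3 fell in MO-Tbx5a (-0.73, adjusted p = 0.00603) and was higher with miR-19a relative to MO-Tbx5a (0.53, adjusted p = 0.0147). and4 went the other way at its brightest probe (0.45 and -0.53), but its 3 probes ran from -0.74 to 0.45 in MO-Tbx5a, and the mean of its probes had the opposite sign (-0.21 and 0.12). Beside msx1b, msx2a fell in MO-Tbx5a (-0.65) and was higher with miR-19a (0.56), whereas msx1a was lower with miR-19a than in MO-Tbx5a (-0.68) or in MO-Ct (-0.39). mab21l1 (-0.07, 0.33 and 0.26) and meis1a (-0.32, 0.14 and -0.18) were not called in any comparison, and the 5 probes of meis1a ran from -1.27 to 0.24 with miR-19a relative to MO-Tbx5a.

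**Figure D4:**
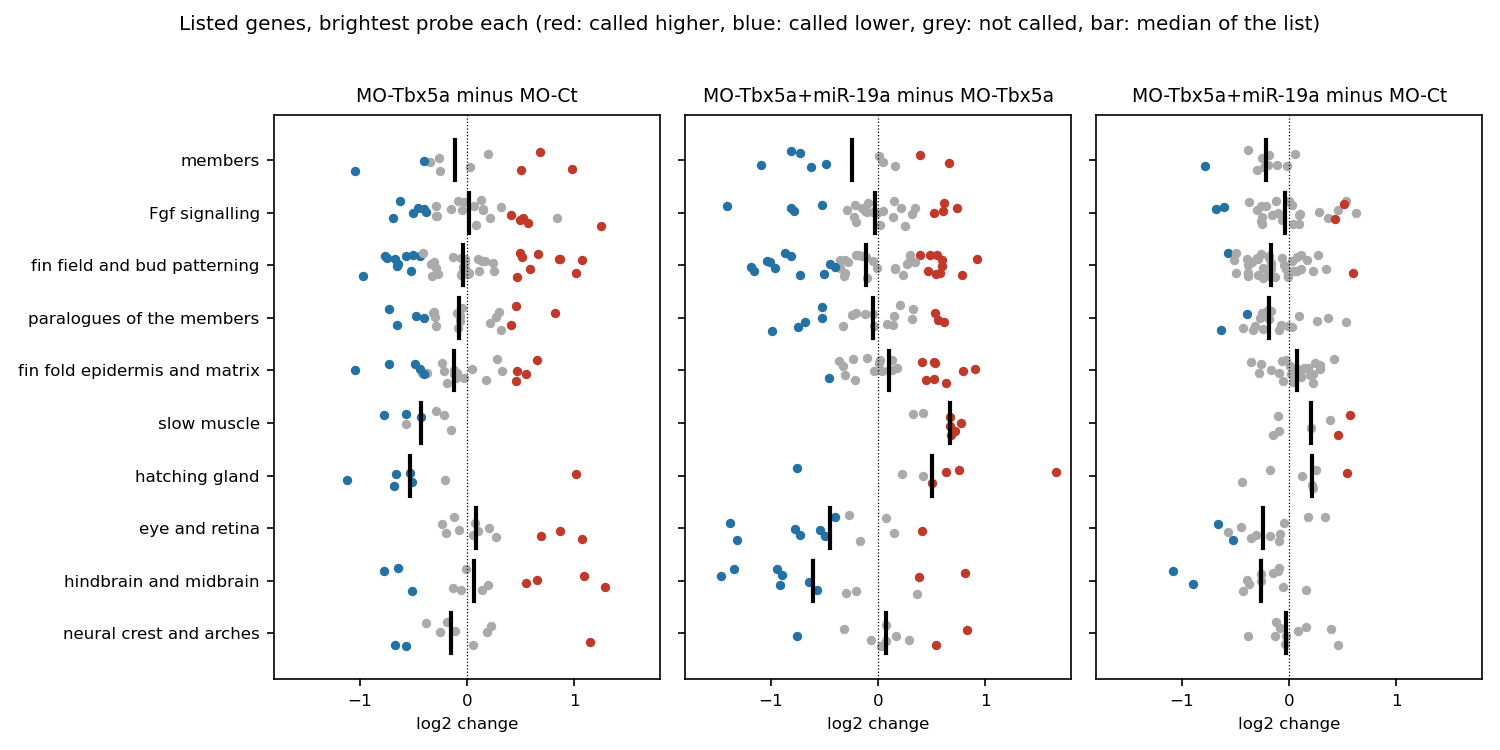
Log2 change (x axis) of the brightest probe of each gene (points) in the 10 fin bud genes (members) and in 9 other gene lists (y axis), for the 3 comparisons (panels). Red marks genes called higher, blue those called lower and grey those not called, and black bars are the medians, which lie within 0.2 of 0 for the fin field list and are -0.43 for the slow muscle list in MO-Tbx5a and 0.67 with miR-19a relative to MO-Tbx5a.

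The fin bud genes are transcribed in other tissues too, and markers of these tissues were followed across the groups. Of all named genes, 37.1% were called in MO-Tbx5a (16.5% higher, 20.6% lower). With miR-19a relative to MO-Tbx5a the share was 41.3% (21% higher, 20.3% lower). A level for a list was taken as the mean, over its genes, of the log2 value minus the mean of that gene over the 8 arrays. Only the brightest probe of a gene entered the levels and counts. The list for slow muscle, a tissue that needs prdm1a, was at 0.06 to 0.12 in MO-Ct, -0.44 to -0.22 in MO-Tbx5a and 0.16 to 0.42 in MO-Tbx5a+miR-19a. Of 7 measured, 3 were lower in MO-Tbx5a (42.9% called) and 5 were higher with miR-19a relative to MO-Tbx5a (71.4%). Both counts include myhz1.1 (-0.77 and 0.68), which encodes a myosin of fast muscle. Other probes of the called genes did not all follow. In MO-Tbx5a those of smyhc2 ran from -0.57 to 0.21 and those of myhz1.1 from -0.77 to 0.295. All probes of smyhc3 were lower there (-0.83 to -0.43). With miR-19a smyhc1 ran from -0.40 to 0.67, smyhc2 from -0.29 to 0.77, tnnc1b from -0.52 to 0.71 and myhz1.1 from -0.63 to 0.68. Both probes of prox1a were higher (0.67 and 0.74). The count of 3 was 2 after quantile normalisation (median change -0.25 in place of -0.43) and 1 after a second cyclic loess (-0.33). Hatching gland genes were at 0.02 to 0.19, -0.41 to -0.17 and 0.18 to 0.24 in the same order. Of these 7, 5 were lower and 1 higher in MO-Tbx5a (85.7% called), and 4 were higher and 1 lower with miR-19a (71.4%). After quantile normalisation 4 were lower in MO-Tbx5a and 5 were higher with miR-19a. Probes of a gene did not always agree. In MO-Tbx5a those of xbp1 ran from -0.685 to 1.47 and those of ctslb from -1.12 to 0.81. All probes of he1.2 (-0.855 to -0.52) and agr2 (-0.67 to -0.15) were lower there. With miR-19a xbp1 ran from -1.43 to 0.51, ctslb from -1.05 to 1.66 and he1.2 from 0.64 to 0.82. In both lists the MO-Tbx5a arrays were lowest, as they were for prdm1a, and their part in the prdm1a values was not tested.

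Eye genes were at -0.01 to 0.02 in MO-Ct, 0.13 to 0.31 in MO-Tbx5a and -0.33 to -0.17 in MO-Tbx5a+miR-19a. Of 12, 3 were higher in MO-Tbx5a (25% called, beside 37.1% of all named genes). With miR-19a relative to MO-Tbx5a 7 were lower and 1 higher (66.7%, beside 41.3%). Hindbrain and midbrain genes were at 0.06 to 0.07, 0.13 to 0.32 and -0.32 to -0.23. Of these 12, 4 were higher and 3 lower in MO-Tbx5a (58.3% called), and 2 were higher and 7 lower with miR-19a (75%). Both lists had the order of groups seen for mab21l2 and for the brightest probe of meis1b, and were also highest in MO-Tbx5a, as fgf16 and sall4 were. Their part in those values was not tested.

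Fin fold epidermis and matrix genes (23 measured of 28), the tissue in which actinodins are laid down, were at -0.04 to 0.07 in MO-Ct, -0.16 to 0.01 in MO-Tbx5a and 0.04 to 0.11 in MO-Tbx5a+miR-19a. In MO-Tbx5a 4 were higher, led by the collagen gene col2a1a (0.66) and the integrin gene itga3b (0.55), and 5 were lower, led by frem2a (-1.05), which encodes a basement membrane protein, and the collagen gene col1a1a (-0.73). With miR-19a relative to MO-Tbx5a 8 were higher and 1 lower, with col1a1a (0.91) and frem2a (0.79) the largest rises. Probes of the genes called higher there did not all agree. Those of col1a1b ran from -1.21 to 1.23, those of fras1 from -0.96 to 0.41 and those of frem3 from -0.47 to 0.53. All probes of col1a1a (0.23 to 1.02), lama5 (0.62 to 0.63) and krt8 (0.45 to 0.63) were higher. The count of 8 was 6 after quantile normalisation (median change 0.05 in place of 0.1). The share called was 39.1% in both comparisons, beside 37.1% and 41.3% of all named genes. Relative to MO-Ct none of the 23 was called by limma, with 3 at an unadjusted p under 0.05. Of all named genes, 12.1% were called there. The MO-Ct and MO-Tbx5a ranges of this list overlapped. Neural crest and arch genes, which share tissue with msx1b and prdm1a, were at -0.09 to 0.11, -0.10 to 0.03 and 0.02 to 0.06, and the 3 groups overlapped. Of the neural crest and arch genes, 30% were called in MO-Tbx5a and 30% with miR-19a relative to MO-Tbx5a. The part of either list in the values of the fin bud genes was not tested.

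The genes nearest to 3 fin bud genes were found by the Euclidean distance between their 8 array values, each probe centred on its own mean. The search covered 11888 named genes, a part of the 12792, since genes with clone-type or provisional symbols were left out. Nearest to sall4 were ptk2aa (distance 0.195), g6pc1a.2 (0.197) and srgap2 (0.199). Nearest to and2 were casq1a (0.467), ntmt2 (0.475) and mustn1b (0.502), all farther away than those of sall4. Nearest to meis1b were fancg (0.160), ankrd10b (0.171) and ankhd1 (0.181). Many other genes were nearly as close. Counting those named, 90 genes for sall4, 1024 for and2 and 206 for meis1b lay within 2 times the third distance. The 8 arrays share their groups and their normalisation, and the distances are a description.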

How the data were processed

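Gene expression was measured on 8 Agilent 1-colour arrays. Per the labels and methods, the authors extracted signals with Agilent Feature Extraction (10.7 for MO-Ct and MO-Tbx5a, 9.1 for MO-Tbx5a+miR-19a by the labels, although the headers of those 3 scans name a 10.7 release), corrected them with normexp (offset 16), normalised between arrays by cyclic loess and tested with limma. The deposited log2 values of 39162 probes were used as they were. Deposited raw intensity values of the 3 MO-Tbx5a+miR-19a scans, with flags for signal above background (other, per the file headers), served only to check the columns, after normexp and matching of their distribution to the matrix. The scans gave 43603 non-control probes each, of which 88.8% to 90.3% were well above background.

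Probe accessions were matched to current symbols through a RefSeq table of the assembly GRCz12tu, which named 24716 probes (12792 symbols) and left 14446 unnamed. Its build differs from that of the arrays, so no coordinates are given, and no sequences were printed. Groups came from sample titles. The test was limma 3.58.1 in R 4.3.3 (lmFit and eBayes, 1 mean per group, 8 arrays, 5 residual degrees of freedom before moderation, all probes, Benjamini-Hochberg). Calls required a fold change above 1.3, p under 0.05 and FDR under 0.05, as in the study's methods. The pipeline was tested on simulated data.

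All 10 fin bud genes are named. From each other gene list, the text names up to 2 of the largest called rises and falls per comparison, plus paralogues or receptors of the fin bud genes and the fin markers of the study. For nearest genes, the 3 fin bud genes with both MO-Tbx5a comparisons called and the largest spread of group means were used. The members and lists were chosen with earlier results of these data known. Listed genes without a matched probe were tbx5a, tbx15, ptch1, bmp7a, vcana, fibina, spred2a, fgfbp2a, fgf9, prdm1b, prdm1c, sall1b, sall2, sall3a, hmcn2, col5a1, epcam, grhl1, grhl3 and hce2l1. stnnc and tnnc1b are 1 gene in the table. Alternatives of scaling were quantile, a second cyclic loess and 75th percentile scaling, each run on the deposited values, which had already been normalised by cyclic loess. Alternatives of the fit were trend and robust eBayes, only the groups compared, a replicate block and each array left out. Others were leaving out dim probes (mean log2 under 6), fold above 2 or no fold minimum, FDR under 0.01 and the mean of all probes of a gene.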

Additional observations from a re-analysis of the deposited data

Results flagged for a closer look

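The raw scans of MO-Tbx5a+miR-19a entered no comparison, and their signal was set beside the matrix. All 20 fin bud probes were well above background in all 3 scans. Of these, 14 lay outside the range of the 8 matrix arrays in all 3 scans. The median absolute difference between a scan mean and the mean of the matrix columns of the same samples was 1.08 on the log2 scale for the fin bud probes and 0.40 for all probes, and 25% of the fin bud probes and 3.01% of all probes differed by more than 2. At the brightest probe, scan minus matrix was 3.52 for and2, a difference that 0.488% of all probes reached. It was 2.20 for and1 (2.3% of probes), -2.34 for sall4 (1.89%) and 1.51 for mab21l2 (6.05%). All 3 and2 probes, both mab21l2 probes and the and1 probe were higher in the scans than in every matrix array, and all 4 sall4 probes were lower. The fgf24, prdm1a and fgf10a probes and 2 of the 3 meis1b probes were within the range of the matrix. Centred on probe means, the correlation of a scan with its own column was -0.10, 0.31 and 0.07. The scans hold no MO-Ct or MO-Tbx5a array, so no group comparison could be made from them, and the cause of the difference was not tested.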

How the results depend on the processing

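Of 927 values of single fin bud genes and probes in settings that changed the values, the fit or the arrays (other thresholds apart), 883 stayed on their side of the threshold, 41 lost a call, 3 gained one and 0 called values changed sign. In MO-Tbx5a against MO-Ct, leaving out 1 array of MO-Tbx5a or MO-Tbx5a+miR-19a gave 4 to 5 genes and 8 to 9 probes called. Without MO-Ct replicate 1, which left 1 control array, fgf16, meis1b and prdm1a lost their calls. A fold minimum of 2 left 1 gene and 1 probe, and an FDR of 0.01 left 3 genes. The shares of all genes called with an array left out or with other thresholds were not computed. Between both MO-Tbx5a groups, leaving out 1 array gave 5 to 7 genes and 9 to 12 probes, and a fold of 2 left 1 and 1. Between the miR-19a group and MO-Ct, leaving out 1 array of either MO-Tbx5a group gave 0 to 1 genes (0 without MO-Tbx5a+miR-19a replicate 1) and 0 to 3 probes. The call of fgf24 was also lost without either MO-Ct array, which left 1 control array. In that comparison a second cyclic loess and a fit of only these groups left 1 probe each. A fold of 2, or an FDR of 0.01, left 0 genes and 0 probes by limma. In the main setting 2 genes and 4 probes had an unadjusted p under 0.05. With the replicate number as a block, 4 genes were called in the first comparison (without prdm1a), 7 in the second and 0 in the last (fgf24 -0.76, adjusted p = 0.0569), with 8, 12 and 0 probes. Deviations of same-numbered arrays correlated at -0.22 to 0.18 (7 pairs), and others at -0.18 to 0.22. The limits of both ranges came from pairs with MO-Ct. Its 2 arrays deviate from their mean by equal and opposite amounts, which forces these ranges to mirror each other. The ranges therefore cannot show whether the numbers pair the arrays. Between both MO-Tbx5a groups, same-numbered arrays correlated at -0.01, -0.11 and -0.12, with no positive value, and others at -0.02 to 0.14. Of 2919 values of other listed genes, 9 reversed, all with the mean of all probes of a gene: in MO-Tbx5a and4 (-0.21), xbp1 (0.12), otx2a (0.24) and tnnc1b (0.48), and with miR-19a relative to MO-Tbx5a fgfr4 (-0.018), and4 (0.12), xbp1 (-0.23), otx2a (-0.12) and aldh1a2 (0.52). The cause was not tested. Among the lists, a second cyclic loess left 1 of 3 slow muscle falls and 3 of 5 fin fold falls in MO-Tbx5a. Quantile normalisation left 4 of 5 hatching gland falls in MO-Tbx5a and 6 of 8 fin fold rises with miR-19a relative to MO-Tbx5a. It gave 5 hatching gland rises in place of 4 in the latter comparison. Each alternative scaling left 1 of 2 falls of paralogues between the miR-19a group and MO-Ct. The matrix was used without detection flags for MO-Ct and MO-Tbx5a, so how far dim probes stood above background in those groups was not measured.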
